A study of Mus musculus with 28 samples.

Results

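The vesicle release machinery genes are the synaptotagmins, SNARE proteins, complexins, Rab3 GTPases, RIM, Munc13 and CAPS proteins and synapsins. They were taken by gene symbol, with a pattern that covers these families, and 71 of the 55487 genes in the count table matched. Of these, 67 had at least 10 reads in at least 3 libraries and were tested. The other 4, Cplx4, Stx19, Syt8 and Sytl3, had 14, 39, 1 and 127 reads in all 28 libraries together. The pattern also takes Snap91, which encodes the clathrin assembly protein AP180 and is not a SNARE, and the symbol Vamp9, which is given no role here.

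Neurons release transmitters and peptides when a vesicle fuses with the plasma membrane. Fusion is driven by SNARE proteins on the vesicle (VAMPs) and on the target membrane (syntaxins and the SNAP-25 family). Munc13 and CAPS proteins prime the vesicle, complexins clamp and assist the SNARE bundle, and synaptotagmins sense calcium. Rab3 and RIM tie the vesicle to the active zone, and synapsins hold a reserve of small vesicles. Hypothalamic LepRb neurons, which carry the long form of the leptin receptor, release fast transmitters from small vesicles and neuropeptides from dense-core vesicles.

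The RNA came from hypothalami of LepRb eGFP-L10a mice, in which a tagged ribosomal protein is made in cells that express LepRb. RNA on the tagged ribosomes was pulled down (bead libraries), and what remained in the same lysate gave the depleted libraries, so that 14 lysates gave 28 libraries. All mice carried the reporter, were of both sexes, were 10 to 13 weeks old and had food removed at the onset of light. They received 5 mg/kg metreleptin, a leptin analog, or vehicle intraperitoneally. The vehicle is given as 0.9% saline in the protocol and as PBS in the treatment labels. In each fraction, wild-type mice at 3 h gave 4 vehicle and 3 leptin libraries. Wild-type mice at 10 h gave 1 vehicle and 3 leptin libraries, and ob/ob mice, which lack functional leptin, gave 2 vehicle and 1 leptin library at 10 h. These 3 sets, called strata below, were each sequenced in a run of their own, so time, genotype and run cannot be told apart. The labels do not tell how many mice went into a lysate, so p-values measure the spread between lysates.

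Totals ran from 21277982 to 42267040 counts in bead libraries and from 19649105 to 41804049 in depleted libraries, and the release genes took 1.77% to 2.04% and 1.90% to 2.10% of them. All 10 markers of LepRb neurons rose in beads, with Lepr itself 2.28 ± 0.09 higher on the log2 scale (SE, 14 lysates, edgeR adjusted p = 8.29e-14). Of 12 general neuron markers, 6 were higher and 4 lower in beads. All 36 markers of astrocytes, oligodendrocytes and microglia were lower in beads, while of 12 endothelial and mural cell markers 5 were higher and 2 lower. The mean log2 CPM of the 36, the glial index, was 3.47 to 5.31 in beads and 5.42 to 6.04 in depleted libraries. Pituitary transcripts stood at 284 and 3062 CPM in the depleted libraries of 3 h vehicle m3 and 3 h leptin f2, at 148 CPM in that of ob/ob leptin, and at 7.04 CPM or less in the others. In bulk RNA, fewer cells of a type and less RNA per cell cannot be told apart.

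Release genes lay on both sides when ribosome-bound RNA of LepRb cells was compared with the RNA left in the lysate. So did members of most families. Depleted RNA was not selected for ribosomes, so cell type and ribosome association cannot be told apart. Of the 67 members, 29 were higher and 28 were lower in beads than in the depleted RNA of the same lysate (edgeR's quasi-likelihood test with the lysate as a block, adjusted p under 0.05). That is 85.1% of the members, beside 77.9% of all 19682 genes tested, of which 38.6% were higher and 39.3% lower. The fractions thus differed in most genes of the table, and the number of members called is near that background. Syt5, Cadps2, Syt4 and Rab3b were the members with the largest positive changes, and Vamp8, Vamp5, Snap23 and Cplx3 those with the largest negative changes. Of the 57 members called, 18 were higher in each of the 14 lysates (31.6%, beside 28.9% of all 15333 genes called) and 17 lower in each (29.8%, beside 25%). In 15 the bead and depleted libraries did not overlap at all (26.3%, beside 21%).

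The direction of small changes depended on scaling. With library totals in place of TMM, the median of all genes moved to -0.19 on the log2 scale, and 19 members were higher and 37 lower (28.4% and 55.2%, beside 27.4% and 50.4% of all genes). The same 28 members were lower with both scalings. Of the 29 higher members, 19 kept the call, Stx5a turned lower, and Sytl4, Stx18, Vamp7, Snap91, Rab3d, Rims3, Rims4, Syn1 and Syn2 lost it. Changes below are TMM values, relative to a median of all genes of -0.01.

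**Figure D1:**
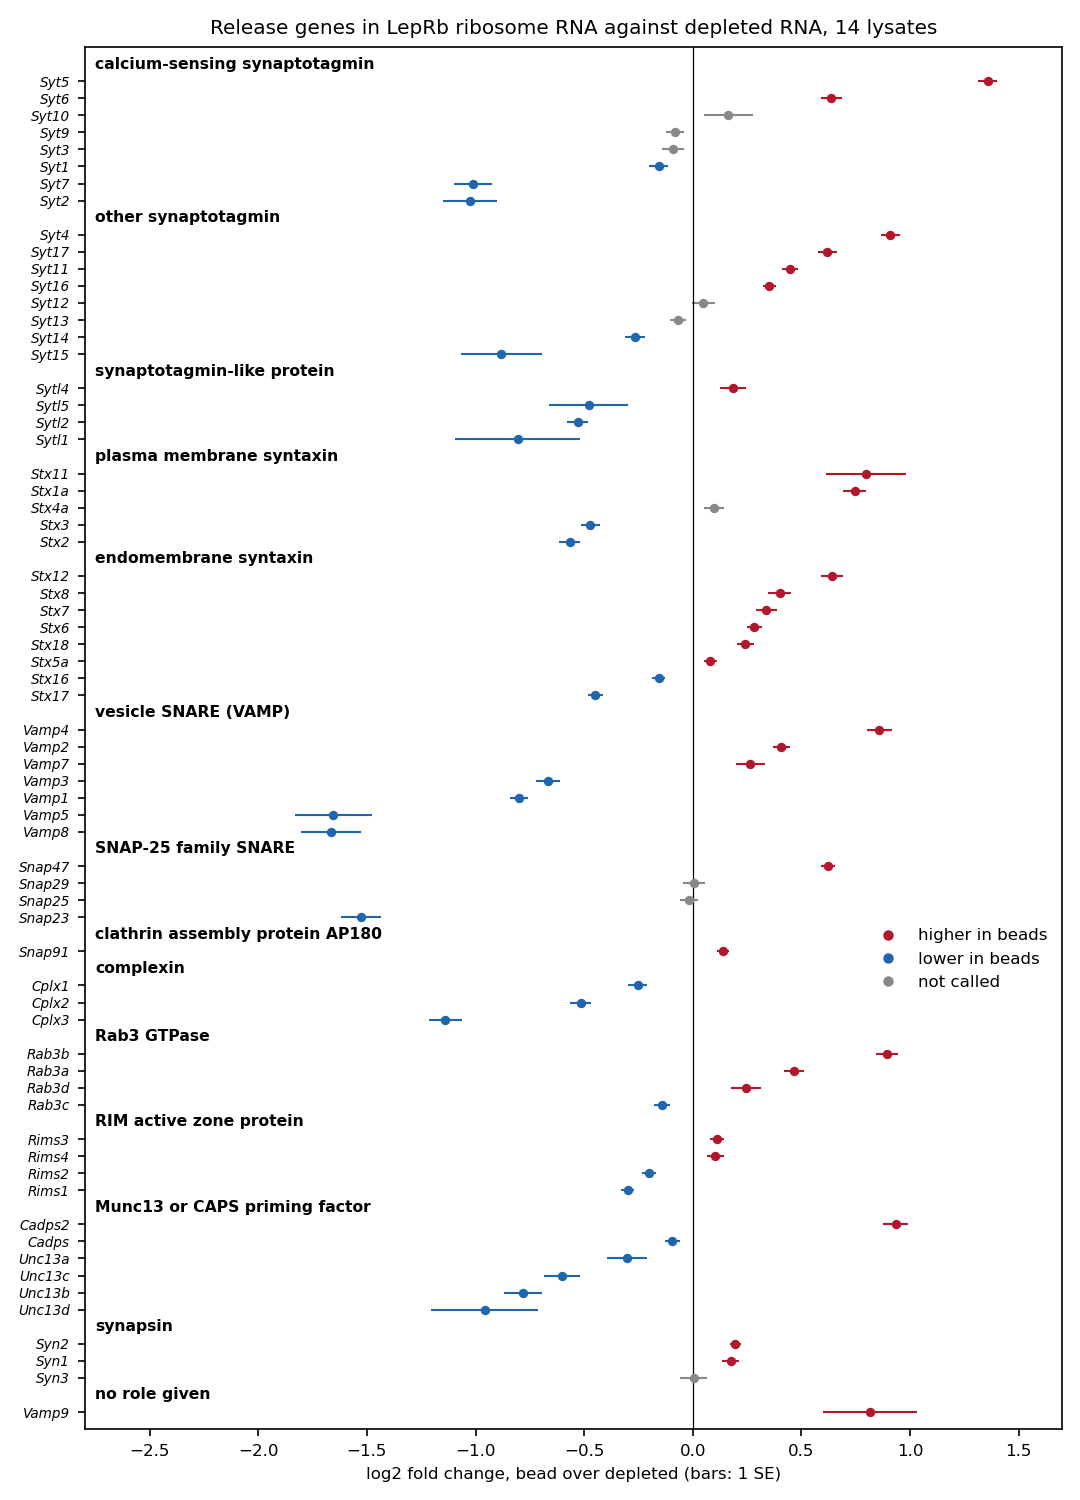
The log2 fold change of bead over depleted RNA for the release genes reported, grouped by role, with 1 SE from the edgeR fit over 14 lysates. Red points are higher, blue points lower and grey points not called at an adjusted p of 0.05. Syt5 stands at 1.36 and Vamp8 at -1.67, and the complexins lie on the lower side together.

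Among the 8 calcium-sensing synaptotagmins tested, 2 were higher in beads, 3 lower and 3 not called. Syt5, a calcium-binding synaptotagmin, changed most. Its depleted libraries ran from 82.2 through a median of 99.2 to 118 CPM, and its bead libraries from 199 through 251 to 316 CPM. All bead libraries lay above all depleted libraries, a 2.56-fold difference (log2 1.36 ± 0.04 SE, edgeR adjusted p = 4.65e-15). Syt6 rose 1.56-fold, from a median of 41.0 to 66.9 CPM, and was higher in beads in 14 of 14 lysates, though the ranges of the fractions overlapped.

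Syt1, the fast calcium sensor of most forebrain synapses, was at 683 CPM in the median depleted library and 636 CPM in the median bead library. It was lower in beads in 12 of 14 lysates (log2 -0.16 ± 0.04, adjusted p = 0.00232), and the bead libraries spread widely, from 476 to 884 CPM. Syt7, a slow, high-affinity sensor, ran from 229 through 289 to 345 CPM in depleted libraries and from 92.5 through 146 to 248 CPM in beads. It fell 2.01-fold in edgeR (adjusted p = 1.18e-08), and every lysate was lower in beads. Syt2, a close relative of Syt1 used at fast hindbrain synapses, fell 2.04-fold, from a median of 75.5 to 32.6 CPM. Syt3, Syt9 and Syt10 were not called, with log2 changes of -0.09, -0.08 and 0.16.

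Of the 8 other synaptotagmins tested, 4 were higher and 2 lower in beads. Syt4, which sits on dense-core vesicles and lacks normal calcium binding, ran from 114 through 146 to 172 CPM in depleted libraries and from 227 through 266 to 332 CPM in beads. The fractions did not overlap, and the difference was 1.88-fold (adjusted p = 4.2e-13, edgeR). Its relative Syt11, also without normal calcium binding, rose 1.36-fold from a median of 526 to 710 CPM. Syt17 rose 1.54-fold and Syt16 1.28-fold, both in 14 of 14 lysates. Syt14 fell by 0.27 and Syt15 by 0.88 on the log2 scale, and Syt15 was scarce, at a median of 1.04 CPM in depleted RNA. Exons of Syt4 share 566 bases with an antisense gene, and the kit does not mark strand, so reads there cannot be assigned. The same limit holds for other members that share exon bases with genes on the opposite strand. Among them are Stx18 (908 bases with Gm42858 and 574 with Nsg1), Syt6 (505), Unc13a (495) and Rab3b (317).

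The 4 synaptotagmin-like genes tested encode effectors of Rab27, the small GTPase of secretory granules. Sytl4 (granuphilin) rose by 0.19 on the log2 scale under TMM. Sytl1, Sytl2 and Sytl5 fell, by 0.81, 0.53 and 0.48. Only Sytl2 of these 3 was lower in all 14 lysates, and Sytl1 was at a median of 0.27 CPM in depleted RNA.

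**Figure D2:**
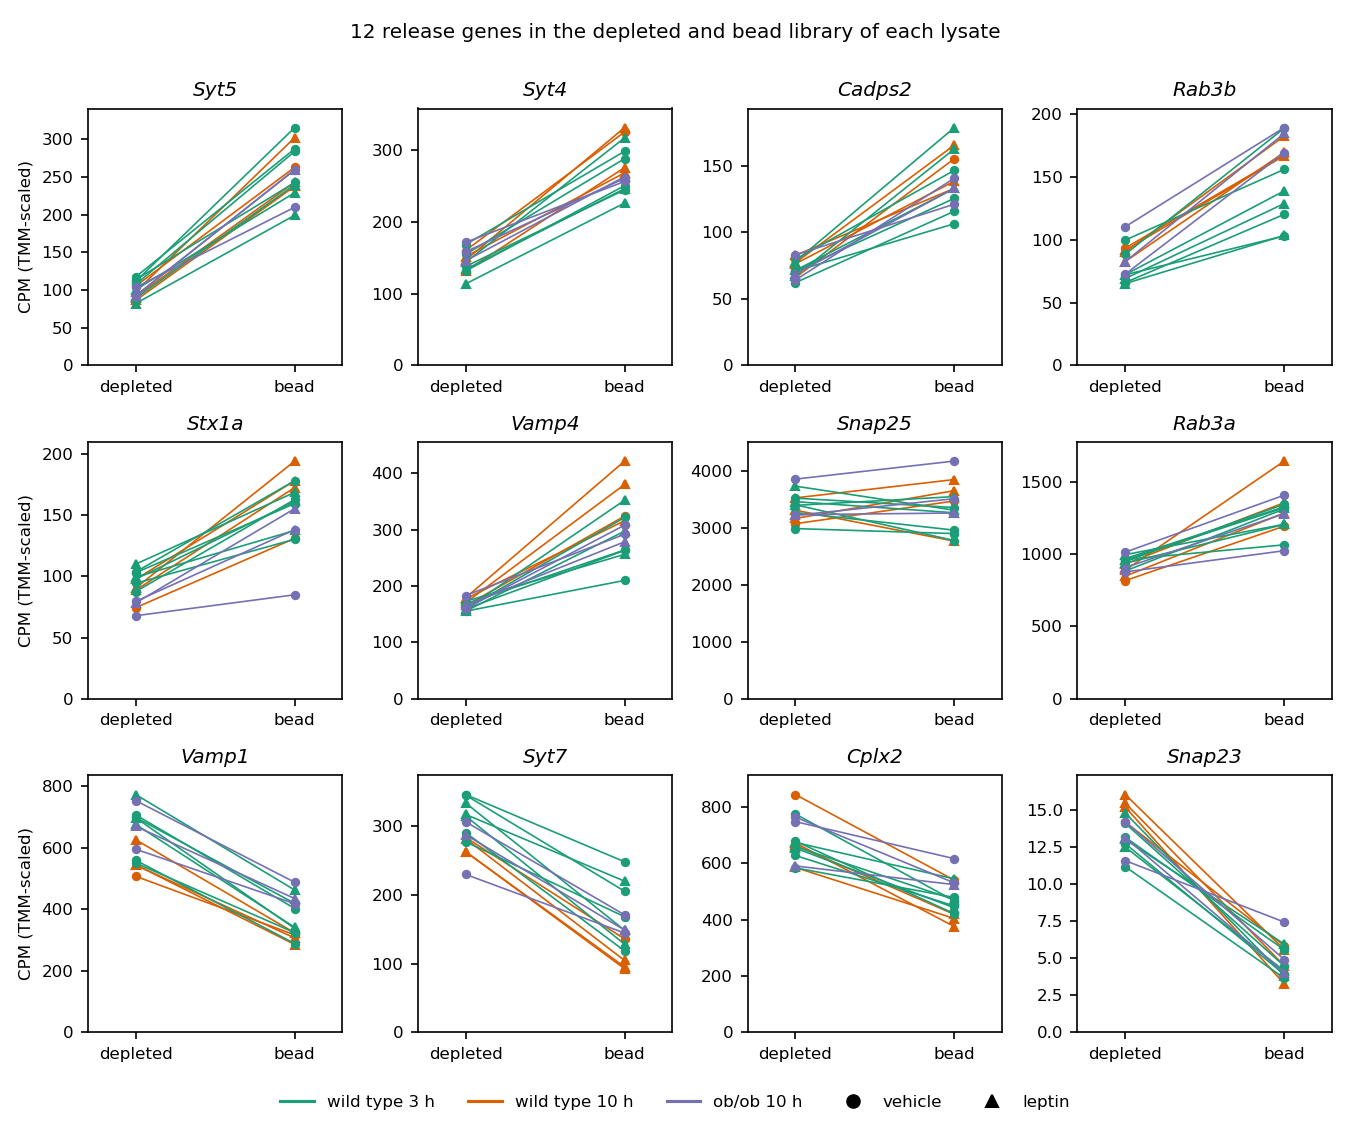
TMM-scaled CPM of 12 release genes in the depleted and the bead library of each lysate, with a line joining the libraries of a lysate. Colours give the stratum, and circles and triangles give vehicle and leptin. In Syt5, Syt4, Cadps2 and Vamp4 all bead libraries lie above all depleted libraries, in Vamp1 and Snap23 all lie below, and Snap25 lines run both ways.

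Among the target-membrane SNAREs, Stx1a, a neuronal syntaxin that binds calcium channels as well as SNAREs, ran from 67.8 through 92.3 to 110 CPM in depleted RNA and from 84.9 through 160 to 194 CPM in beads. It rose 1.68-fold in 14 of 14 lysates (edgeR adjusted p = 1.38e-10), with overlap only through 1 ob/ob vehicle bead library at 84.9 CPM.

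The plasma membrane syntaxins Stx2 and Stx3, used in many secretory cells, fell by 0.57 and 0.47 in all 14 lysates. Stx11, better known from immune cells, rose by 0.80 but from a median of 0.34 CPM. Stx4a, of constitutive exocytosis, was not called at 0.10.

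Snap25, the main neuronal SNARE of its family, had nearly equal medians of 3352 CPM in depleted and 3333 CPM in bead libraries. It was higher in beads in 7 lysates and lower in 7 (log2 -0.02 ± 0.04, adjusted p = 0.712). With library totals it was called lower, at -0.19. Snap23, its counterpart outside neurons, ran from 11.2 through 13.6 to 16.0 CPM in depleted RNA and from 3.27 through 4.49 to 7.44 CPM in beads. It fell 2.88-fold without overlap (adjusted p = 1.18e-11 in edgeR). Snap47 rose 1.54-fold, from a median of 602 to 934 CPM, also without overlap, although 307 of its exon bases are shared with Jmjd4 on the opposite strand.

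Of the 7 vesicle SNAREs, 3 were higher and 4 lower. Vamp2, the main synaptic vesicle SNARE of the forebrain, ran from 1511 through 1772 to 1833 CPM in depleted RNA and from 1835 through 2340 to 2572 CPM in beads. It rose 1.33-fold in all 14 lysates (adjusted p = 1.13e-08, edgeR), and the lowest bead library lay just above the highest depleted library. Vamp1, the sister synaptic SNARE, went the other way. It ran from 507 through 648 to 773 CPM in depleted RNA and from 286 through 339 to 488 CPM in beads, a 1.74-fold fall without overlap (adjusted p = 1.76e-12).

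Vamp4, of the trans-Golgi network and maturing granules, rose 1.81-fold from a median of 165 to 303 CPM without overlap. Vamp7, a tetanus toxin-insensitive SNARE, rose by 0.27 under TMM. Vamp8, Vamp5 and Vamp3, which are best known from cells other than neurons, fell 3.17-fold, 3.15-fold and 1.59-fold, and no bead library reached a depleted library. Vamp8 and Vamp5 were scarce in both fractions, with depleted medians of 6.96 and 2.60 CPM. Vamp9, counted apart from the SNAREs, rose by 0.82 from a depleted median of 0.35 CPM.

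Snap23, Vamp8, Vamp5 and Vamp3 were lower in beads, and so were the glial markers. Stx11, better known from immune cells, rose by 0.80, and Stx4a was not called. The calcium sensors Syt2 and Syt7 and the synaptic SNARE Vamp1 fell as well, by 1.03, 1.01 and 0.80. Whether any of these members varied with the glial markers across lysates was not tested. The summed level of the 12 oligodendrocyte markers was 1135 to 3501 CPM in beads and 4660 to 6417 CPM in depleted RNA. The 12 astrocyte markers summed to 796 to 1673 and 1715 to 2172 CPM, and the 12 microglial markers to 26.7 to 91.9 and 79.0 to 159 CPM. Their part in the result was not tested.

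The endomembrane syntaxins serve the Golgi and endosomes rather than the synapse. Of 8, 6 were higher and 2 lower in beads. Stx12, an endosomal syntaxin, rose 1.56-fold from a median of 224 to 360 CPM in 14 of 14 lysates. Stx8, Stx7 and Stx6 rose by 0.40, 0.34 and 0.28. Stx18, of the endoplasmic reticulum, and Stx5a, of the early Golgi, rose by 0.24 and 0.08 under TMM; with library totals the former was not called and the latter was lower. Stx17, of autophagosomes, and Stx16, of the trans-Golgi network, fell by 0.45 and 0.16 in all 14 lysates.

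The 3 complexins tested were all lower in beads with both scalings. Cplx1 ran from 986 through 1221 to 1467 CPM in depleted RNA and from 723 through 1008 to 1425 CPM in beads, and was lower in 13 of 14 lysates (log2 -0.25 ± 0.04, edgeR adjusted p = 2.83e-05). Cplx2 ran from 583 through 667 to 843 CPM and from 375 through 468 to 615 CPM. It was lower in all 14 lysates, 1.43-fold in edgeR (adjusted p = 6.4e-09). Cplx3, a membrane-anchored complexin known from ribbon synapses, fell 2.20-fold from a median of 5.06 to 2.27 CPM without overlap.

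The priming factors split between the CAPS pair. Cadps2, which primes dense-core vesicles, ran from 62.1 through 71.1 to 82.9 CPM in depleted RNA and from 106 through 136 to 179 CPM in beads. It rose 1.91-fold without overlap (adjusted p = 1.11e-11 in edgeR). Cadps, the first CAPS protein, was lower by 0.09 in 12 of 14 lysates, from a median of 347 to 319 CPM (adjusted p = 0.0158). All 4 Munc13 genes were lower. Unc13a, the main neuronal Munc13, fell by 0.30 ± 0.09 (adjusted p = 0.00642), Unc13b by 0.78, Unc13c by 0.60 and Unc13d by 0.96. Bead libraries of Unc13a ran from 81.5 to 226 CPM and covered the whole depleted range of 118 to 183 CPM. Unc13d, best known from cytotoxic granules, was at a median of 0.87 CPM in depleted RNA.

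Of the Rab3 GTPases, Rab3b ran from 65.1 through 82.5 to 110 CPM in depleted RNA and from 103 through 167 to 189 CPM in beads. It rose 1.86-fold in 14 of 14 lysates (edgeR adjusted p = 4.1e-12). Rab3a, the major synaptic form, rose 1.38-fold from a median of 934 to 1297 CPM without overlap. Rab3d rose by 0.25 under TMM, and Rab3c fell by 0.14. The long RIM scaffolds Rims1 and Rims2 fell by 0.30 and 0.20 in all 14 lysates, while the short forms Rims3 and Rims4 rose by 0.11 and 0.10 under TMM alone. Rims1 went from a median of 135 to 105 CPM (adjusted p = 3.19e-08). 

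The synapsins Syn1 and Syn2 rose by 0.17 and 0.20 under TMM, in 13 and 14 of 14 lysates, but stood at -0.004 and 0.02 with library totals and were then not called. Syn3 was not called at 0.004. A Timp gene lies within each of the synapsin genes on the opposite strand. Timp1 lies in Syn1 without shared exon bases, Timp4 shares 90 exon bases with Syn2 and Timp3 shares 1733, or 14.1% of the exons, with Syn3. Timp1 rose in beads by 3.90 and Timp3 fell by 0.77 on the log2 scale, and reads of the shared bases cannot be assigned to Syn3 or Timp3. Snap91, whose product recycles synaptic vesicle membrane, rose by 0.14 in 14 of 14 lysates under TMM.

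The promoters of some of these genes are shown so that the sequence in front of members with opposite changes can be seen. The windows are the 250 bases before the RefSeq start on GRCm38.p6, written 5′ to 3′ on the strand of the gene, and 54 of the 71 members matched the RefSeq table. Capitals mark 3 motifs searched on both strands: the GC box GGGCGG, the cyclic AMP response element TGACGTCA, and the STAT-type palindrome TTCNNNGAA. GC boxes may overlap each other. Cadps2, Rab3b and Stx1a were higher in beads, Vamp8 was lower, Syn1 is the member with a cyclic AMP response element, and Rims3 returns with leptin below.
Cadps2 (chr6:23839422-23839671, minus strand): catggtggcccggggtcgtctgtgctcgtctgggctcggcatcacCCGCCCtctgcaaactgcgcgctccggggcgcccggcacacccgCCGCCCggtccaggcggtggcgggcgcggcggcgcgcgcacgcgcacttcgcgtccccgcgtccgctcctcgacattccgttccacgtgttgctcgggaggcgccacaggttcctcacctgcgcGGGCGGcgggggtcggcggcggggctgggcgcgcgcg
Rab3b (chr4:108878820-108879069, plus strand): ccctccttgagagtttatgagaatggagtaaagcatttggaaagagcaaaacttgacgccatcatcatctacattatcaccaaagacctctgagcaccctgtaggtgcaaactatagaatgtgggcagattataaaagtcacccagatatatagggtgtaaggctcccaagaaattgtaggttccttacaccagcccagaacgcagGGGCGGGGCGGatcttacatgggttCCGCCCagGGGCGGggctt
Stx1a (chr5:135023232-135023481, plus strand): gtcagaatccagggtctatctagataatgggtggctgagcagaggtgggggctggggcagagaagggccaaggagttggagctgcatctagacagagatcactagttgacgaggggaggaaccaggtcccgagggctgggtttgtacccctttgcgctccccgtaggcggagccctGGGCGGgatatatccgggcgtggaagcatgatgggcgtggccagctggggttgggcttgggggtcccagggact
Vamp8 (chr6:72390668-72390917, minus strand): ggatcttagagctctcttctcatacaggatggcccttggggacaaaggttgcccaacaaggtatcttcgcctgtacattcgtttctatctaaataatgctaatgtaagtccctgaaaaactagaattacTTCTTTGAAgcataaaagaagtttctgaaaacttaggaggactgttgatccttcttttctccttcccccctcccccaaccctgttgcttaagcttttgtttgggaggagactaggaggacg
Syn1 (chrX:20920919-20921168, minus strand): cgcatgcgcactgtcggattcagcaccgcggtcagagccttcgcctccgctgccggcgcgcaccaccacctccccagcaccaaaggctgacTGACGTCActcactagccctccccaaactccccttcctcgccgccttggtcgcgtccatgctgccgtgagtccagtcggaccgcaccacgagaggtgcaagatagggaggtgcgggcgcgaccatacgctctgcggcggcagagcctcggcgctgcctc
Rims3 (chr4:120854549-120854798, plus strand): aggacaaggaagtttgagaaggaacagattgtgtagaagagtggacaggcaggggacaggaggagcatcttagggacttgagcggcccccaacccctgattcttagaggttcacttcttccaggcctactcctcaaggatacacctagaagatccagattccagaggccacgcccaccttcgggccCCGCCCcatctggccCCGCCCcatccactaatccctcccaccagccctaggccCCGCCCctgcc
The GC box was in 35 of the 54 member promoters (64.8%) and in 32.7% of all 32851 promoters of the same length. The cyclic AMP response element was in 1 of 54 (1.85%), beside 1.55% of all promoters. The STAT-type palindrome was in 4 of 54 (7.41%), beside 7.02%. The 54 member promoters are 1 per gene, each the nearest to the annotated start, while the background takes every promoter without that choice. The shares are thus not like for like. A match describes the letters and does not show a bound site.

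Levels per kilobase of exon (RPKM) were used to set members against each other. The length covers all annotated exons of a gene, not the transcripts present, so the order depends on it. In beads Vamp2 was highest at 608 ± 59.4 RPKM (SD, n = 14), then Rab3a at 576 ± 67.4, Snap25 at 492 ± 59.7 and Cplx1 at 462 ± 92.2. Vamp2 and Rab3a, and Snap25 and Cplx1, differed by less than their spread. Snap47 followed at 352 ± 27.0, and Syn1 stood at 172 ± 22.0. In depleted RNA the same 5 genes led in another order, with Cplx1 at 546 ± 72.9 and Snap25 at 496 ± 35.5 ahead of Vamp2 at 457 ± 23.3 and Rab3a at 415 ± 25.3. Syt5 stood at 107 ± 14.1 RPKM in beads, above Syt1 at 78.2, while in depleted RNA Syt1 stood at 86.2 and Syt5 at 41.8. The bead order rests on exon lengths of 2380 bases for Syt5 and 8338 for Syt1. In CPM Syt1 was the higher in beads, at a median of 636 beside 251.

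Ratios within related pairs do not depend on library scaling. The Vamp1 to Vamp2 ratio of RPKM was 0.137 ± 0.014 in depleted RNA and 0.0604 ± 0.0144 in beads (SD, n = 14), lower in beads in 14 of 14 lysates. Cadps to Cadps2 went from 3.12 ± 0.38 to 1.54 ± 0.29, lower in 14 of 14. The ratios of Rab3a to Rab3c (4.32 to 6.69), Syt1 to Syt2 (8.65 to 16.6), Syt4 to Syt11 (0.369 to 0.511) and Snap25 to Snap23 (157 to 458) were higher in beads in every lysate. Cplx1 to Cplx2 (4.02 to 4.80) and Unc13a to Unc13b (9.99 to 14.1) were higher in 13 of 14. Rims1 to Rims2 (1.24 to 1.16) and Syn1 to Syn2 (1.83 to 1.80) were lower in 12 and 11 lysates, by less than their SD.

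**Figure D3:**
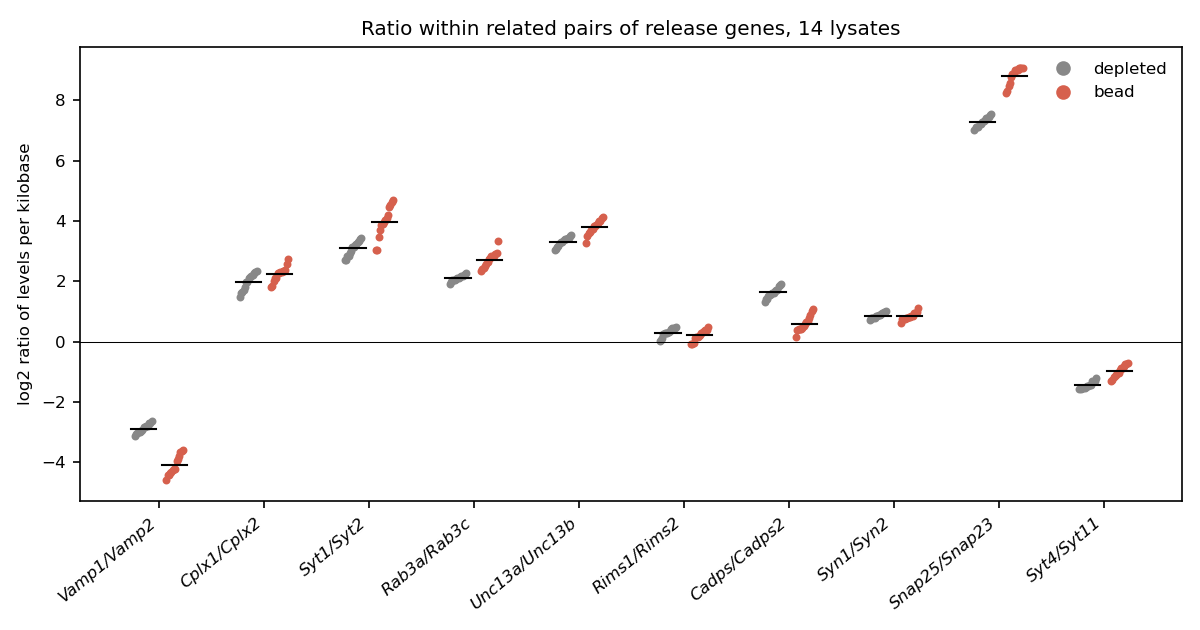
The log2 ratio of levels per kilobase within 10 pairs of related release genes, with a point for each of the 14 lysates in depleted (grey) and bead (red) libraries and a black line at the mean. The Snap25/Snap23 ratio lies higher and the Vamp1/Vamp2 and Cadps/Cadps2 ratios lie lower in beads without overlap, while Syn1/Syn2 overlaps.

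Genes that work beside the members were read from a list of 37 further release genes. Of these, 21 were higher and 11 lower in beads under TMM (56.8% and 29.7%, beside 38.6% and 39.3% of all genes). With library totals 13 were higher and 16 lower, where 27.4% and 50.4% of all genes were. Doc2b and Doc2a, soluble calcium sensors, rose by 1.07 and 0.93, and Rab27a, the granule GTPase, by 1.04. Rph3al (Noc2), a Rab3 and Rab27 effector of dense-core granules, rose by 0.69 and Syngr3, a synaptic vesicle membrane protein, by 0.73. Pclo and Bsn, the large active zone scaffolds Piccolo and Bassoon, fell by 1.37 and 0.88. Stxbp3, a syntaxin-binding protein best known outside neurons, fell by 1.26.

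The bead profile was also estimated for each stratum, whose lysates are not shared, from a fit of all 28 libraries with a pooled spread. Each estimate weights the vehicle and leptin arms equally. The lone vehicle lysate of wild type at 10 h and the lone leptin lysate of ob/ob thus count as a whole arm. At 3 h in wild type, 25 members were higher and 24 lower in beads (73.1%, beside 65% of all genes, 33.1% higher and 31.9% lower). At 10 h in wild type the counts were 27 and 22 (73.1%, beside 62.7%, 31% higher and 31.7% lower), and in ob/ob 20 and 18 (56.7%, beside 45.4%, 23.5% higher and 21.8% lower). The sign was the same in all 3 strata for 58 of 67 members, and for 55 of the 57 called overall. Across the 67 genes, which are not independent replicates, Pearson's r with the wild type 3 h changes was 0.941 for wild type 10 h and 0.907 for ob/ob. Of the 12 endothelial and mural markers, 7 were higher and 1 lower in beads at 3 h, none higher and 5 lower in wild type at 10 h, and 1 higher and 2 lower in ob/ob, and their part in the members' values was not tested.

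**Figure D4:**
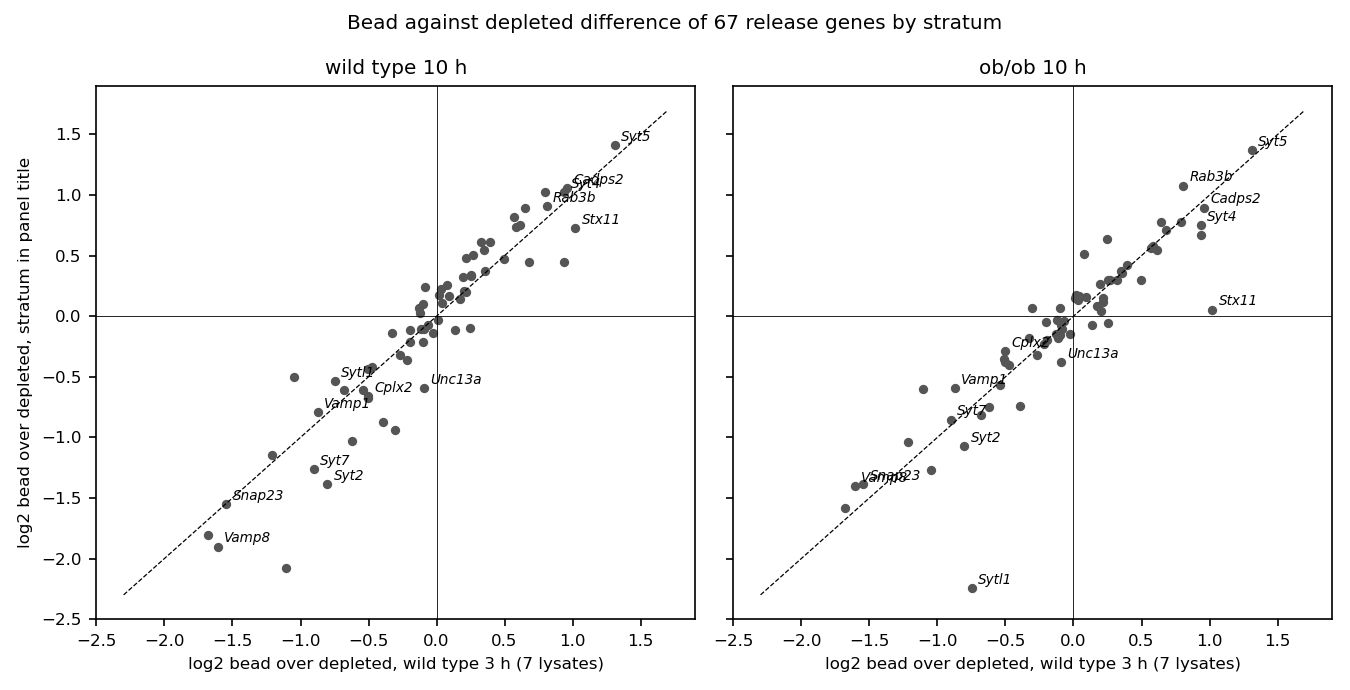
The log2 bead over depleted change of 67 release genes in wild type at 3 h (x axis, 7 lysates) against wild type at 10 h (left, 4 lysates) and ob/ob at 10 h (right, 3 lysates), with a dashed line of equality. Syt5 lies at the upper end and Vamp8 near the lower end in both panels, and most genes lie near the line. Each value weights the vehicle and leptin arms of its stratum equally.

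No member's bead to depleted difference was called different between ob/ob and wild type at 10 h by edgeR or by DESeq2, and 0.0102% of all genes were called in edgeR. An unadjusted p under 0.05 was found for 6 members (8.96%, beside 4.97% of all genes). The smallest p belonged to Syt10, at 0.74 ± 0.24 on the log2 scale (adjusted p = 0.808), then Cplx2 at 0.38 ± 0.13 and Sytl2 at 0.33 ± 0.12. Between 10 h and 3 h in wild type, no member was called by edgeR or DESeq2, and 0% of all genes were called in edgeR. The 10 members with an unadjusted p under 0.05 made up 14.9%, beside 14.5% of all genes. Snap29, a SNARE of autophagy and endosomes, stood at 0.33 ± 0.12, Unc13c at -0.48 ± 0.18 and Unc13a at -0.50 ± 0.20, with adjusted p-values of 0.267, 0.292 and 0.297.

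Leptin left few detectable changes in these genes. In beads, no member was called at 3 h, at 10 h or over all strata, by edgeR or by DESeq2, where edgeR called 0.022% of all genes in each comparison. Members with an unadjusted p under 0.05 in edgeR numbered 6, 4 and 4 (8.96%, 5.97% and 5.97%), beside 7.48%, 9.09% and 11% of all genes. At 3 h these began with Rab3c, whose vehicle bead libraries held 948, 992, 1070 and 1008 CPM and whose leptin libraries held 1274, 1242 and 1207 CPM. The arms did not overlap, and the log2 change was 0.30 ± 0.09 with an adjusted p of 0.656. Unc13d at -1.29 ± 0.45 and Syt5 at -0.35 ± 0.12 followed, with the same adjusted p.

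At 10 h in beads the smallest p-values belonged to Stx1a (0.46 ± 0.16), Cplx2 (-0.30 ± 0.11) and Vamp5 (-1.26 ± 0.50), each with an adjusted p of at least 0.527. The bead libraries of Stx1a at 10 h held 131 CPM with vehicle and 178, 172 and 194 CPM with leptin in wild type. In ob/ob they held 138 and 84.9 CPM with vehicle and 155 CPM with leptin. Leptin lay above vehicle in both strata, on 3 vehicle lysates in all. Over all strata, Vamp5 stood at -0.99 ± 0.31, Syt1 at -0.31 ± 0.13 and Cplx3 at -0.43 ± 0.18, with adjusted p-values of 0.276, 0.400 and 0.401. The glial index of beads was lower with leptin in each stratum, at means of 4.26 and 4.67 for leptin and vehicle in wild type at 3 h, 3.61 and 4.46 in wild type at 10 h, and 3.71 and 4.51 in ob/ob. With it as a covariate no member was called in any of these bead comparisons. Over all strata Syt1 then stood at 0.006 (adjusted p = 0.993), Vamp5 at -0.72 and Cplx3 at -0.71, and at 10 h Stx1a stood at 0.26. The endothelial and mural markers had negative leptin estimates in beads for 12 of 12 genes at 3 h, 11 of 12 at 10 h and 12 of 12 over all strata, none of them called, and their part in these values was not tested. Without the 2 lysates rich in pituitary transcripts, 3 members were called over all strata in beads (4.48%, beside 2.35% of all genes), among them Syt1 at -0.46 with an adjusted p of 0.0462.

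In depleted RNA, edgeR called no member at 3 h or at 10 h, where 0% and 0.00523% of all genes were called. At 3 h, 8 members had an unadjusted p under 0.05 (11.9%, beside 9.48% of all genes), and at 10 h 11 had (16.4%, beside 8.98%). DESeq2 called Syt5 at 3 h (1 member, 1.49%, beside 0.324% of all genes), and Rims3 and Cplx2 at 10 h (2 members, 2.99%, beside 0.607%). Over all strata edgeR called 2 members, 2.99%, beside 0.623% of all genes. Rims3 rose by 0.21 ± 0.04 (adjusted p = 0.0373) and Syt5 fell by 0.25 ± 0.05 (adjusted p = 0.0430). Rab3c was just outside the threshold at 0.17 ± 0.04 (adjusted p = 0.0521).

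Rims3 in depleted RNA held 764, 826, 861 and 833 CPM with vehicle and 880, 989 and 909 CPM with leptin in wild type at 3 h. At 10 h it held 634 CPM with vehicle and 829, 770 and 793 CPM with leptin in wild type, and 738 and 641 CPM against 812 CPM in ob/ob. Leptin lay above vehicle without overlap in all 3 strata, as it did for Rims1. At 10 h such an order rests on 1 vehicle library in wild type and 1 leptin library in ob/ob, here and for the genes below. Snap25, Vamp2 and Rab3a, among others, also lay above that wild-type vehicle library in depleted RNA. The share of all genes with such an order was not computed. In beads, the 3 h arms overlapped and the leptin mean was higher by 0.08 on the log2 scale. At 10 h in beads leptin lay above vehicle without overlap, by 0.11 in wild type and 0.27 in ob/ob.

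Syt5 in depleted RNA held 112, 108, 114 and 118 CPM with vehicle and 101, 82.2 and 89.1 CPM with leptin in wild type at 3 h. At 10 h it held 105 CPM with vehicle and 86.3, 91.4 and 97.8 CPM with leptin, and in ob/ob 92.4 and 104 CPM against 92.3 CPM. Leptin lay below vehicle in all 3 strata, in ob/ob by less than 1 CPM from the nearest library. In beads it lay below vehicle at 3 h (316, 284, 243 and 288 CPM against 229, 199 and 240 CPM), overlapped in wild type at 10 h and lay just above in ob/ob.

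Leptin libraries of Rab3c in depleted RNA lay above vehicle in all 3 strata, with means of 1286 and 1140 CPM for leptin and vehicle in wild type at 3 h, 1143 and 1029 at 10 h and 1242 and 1070 in ob/ob. Leptin libraries of Cplx2 lay below vehicle in both 10 h strata, at means of 640 and 843 CPM in wild type and 590 and 755 CPM in ob/ob. Its 10 h change was -0.38 ± 0.09, with an adjusted p of 0.180 in edgeR and 0.0106 in DESeq2. Its 3 h arms overlapped, at means of 661 and 665 CPM.

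The calls on Rims3 and Syt5 were not stable. With the glial index as a covariate, Rims3 stood at 0.19 (adjusted p = 0.509), close to its size without it, while Syt5 shrank to -0.16 (adjusted p = 0.614). Without the 2 pituitary-rich lysates the values were 0.20 and -0.22 (adjusted p = 0.104 and 0.101), and with library totals Syt5 stood at -0.24 (adjusted p = 0.0552). Leaving out a lysate at a time, Rims3 kept its call in 5 of 14 fits and Syt5 in 3 of 14. The glial index of depleted RNA was 5.42 to 5.77 with leptin and 5.73 to 6.04 with vehicle in wild type at 3 h. Its part in the calls was not tested beyond that fit.

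**Figure D5:**
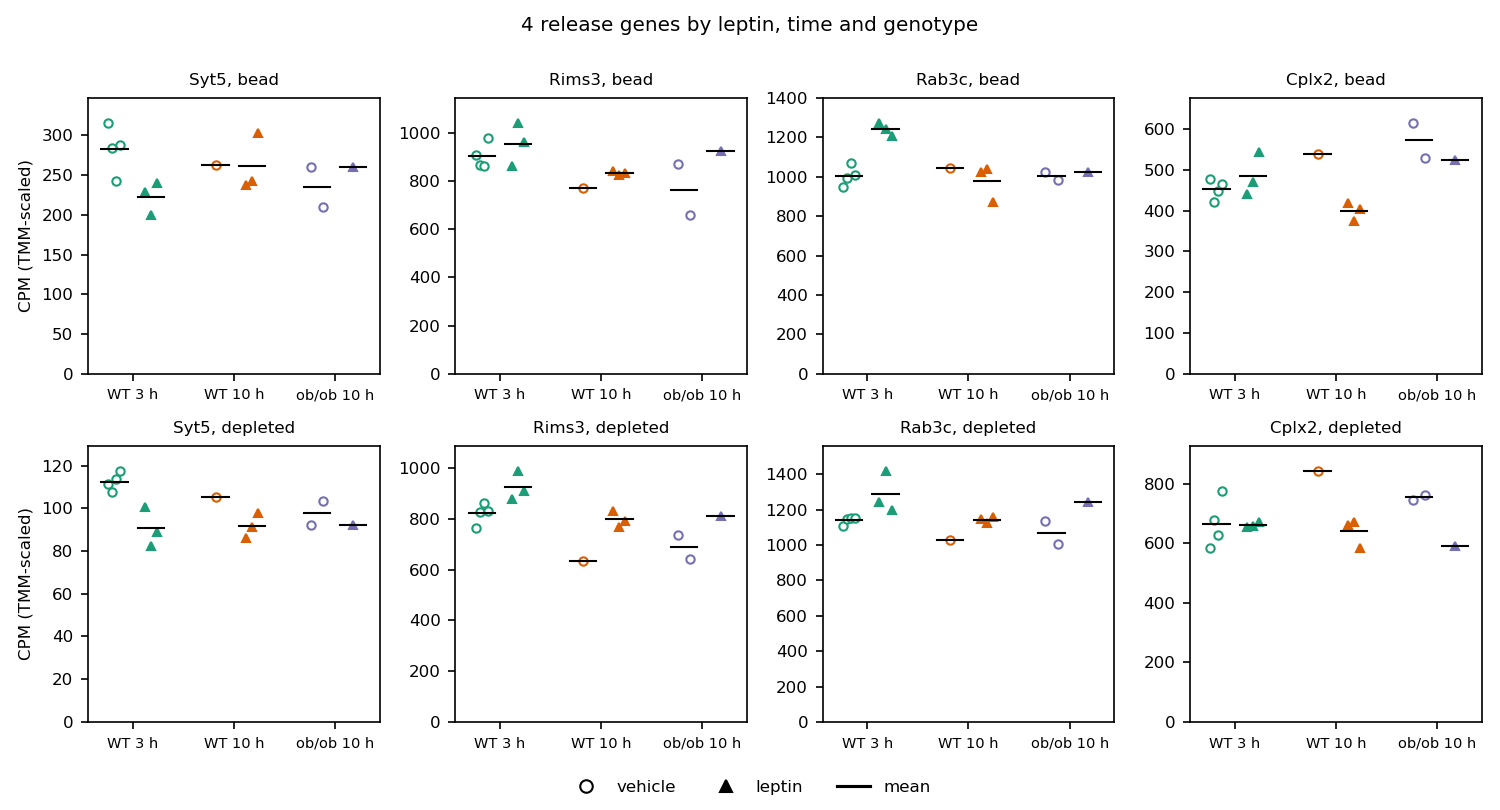
TMM-scaled CPM of Syt5, Rims3, Rab3c and Cplx2 in bead (top) and depleted (bottom) libraries by stratum, with open circles for vehicle, filled triangles for leptin and a line at each mean. In depleted RNA, leptin lies above vehicle for Rims3 and Rab3c and below for Syt5 in each stratum, and Cplx2 is lower at 10 h. Each 10 h stratum has 1 library in 1 of its arms.

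The leptin effect over all strata was not called different between beads and depleted RNA for any member by edgeR or DESeq2. In edgeR 0.0305% of all genes were called, and an unadjusted p under 0.05 was found for 2 members (2.99%, beside 5.34% of all genes). Vamp5 stood at -0.98 ± 0.30 (adjusted p = 0.868), Syt13 at -0.17 ± 0.07 and Syt9 at -0.17 ± 0.08.  Beside Syn1, Timp1 rose with leptin in beads at 10 h by 3.25 ± 0.36 (adjusted p = 0.00347), while Syn1 was not called (0.20 ± 0.13, adjusted p = 0.664).

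Between ob/ob and wild-type mice at 10 h, no member was called in beads by edgeR or DESeq2. In edgeR 0.472% of all genes were called, and 4 members had an unadjusted p under 0.05 (5.97%, beside 9.78% of all genes). All 12 endothelial and mural markers had positive estimates there, none of them called, and their part in these values was not tested. Vamp1 was at 0.52 ± 0.16 (adjusted p = 0.252), Sytl2 at 0.37 ± 0.13 and Vamp7 at -0.36 ± 0.15. In depleted RNA 3 members were called, 4.48% of those tested, beside 5.57% of all genes, so the share was no higher than the background. Unc13a was lower in ob/ob by 0.29 ± 0.06 (edgeR adjusted p = 0.0158). Its libraries held 157 CPM with vehicle and 138, 151 and 142 CPM with leptin in wild type. In ob/ob they held 132 and 127 CPM with vehicle and 118 CPM with leptin, all below every wild-type library of 10 h.

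Syt17 was higher in ob/ob by 0.26 ± 0.07 (adjusted p = 0.0344) and Rims4 by 0.20 ± 0.05 (adjusted p = 0.0349). Syt17 held 58.5, 71.8, 67.7 and 67.7 CPM in wild type and 77.6, 70.8 and 78.7 CPM in ob/ob, and the groups overlapped. Rims4 held 75.5, 87.3, 81.7 and 85.3 CPM against 93.9, 98.8 and 88.6 CPM, without overlap. Sequencing run differed between these groups in the same way as genotype. The Syt17 and Rims4 calls were lost with library totals, at nearly the same size (0.24 and 0.18, adjusted p = 0.0545 and 0.0594). Rims4 also lost its call with no count filter (0.18, adjusted p = 0.145), without the pituitary-rich lysates (0.19, 0.0521) and with the glial covariate (0.17, 0.0628). Those pituitary-rich lysates were both of wild type at 3 h, outside this contrast, and acted only through the shared spread, scaling and gene filter. The ob/ob leptin lysate, with pituitary transcripts at 148 CPM in depleted RNA, stayed in. That fit thus cannot tell what pituitary RNA does to this contrast. With a lysate left out Syt17 and Rims4 held in 9 and 7 of the 12 fits that could be made, while Unc13a held in 12 of 12. In 7 of these fits the lysate left out was of wild type at 3 h, which is outside this contrast. The lone wild-type vehicle and ob/ob leptin lysates of 10 h could not be left out. Syt17 and Rims4 both lost their calls without wild-type 10 h leptin lysate 2 or 3, and each without 1 of the ob/ob vehicle lysates.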

How the data were processed

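RNA-seq was measured in 28 libraries from 14 lysates. The authors deposited raw read counts per gene as whole numbers with no normalization. Per the labels' protocols, poly(A) RNA with a RIN of 8 or more went into an unstranded kit and was read for 50 cycles from 1 end. The submitters' processing notes name STAR 2.7.6a and GRCm38.p6, and no source names the counting program. Per the deposited run list, 1 run held the 14 wild-type 3 h libraries, another the 8 wild-type 10 h libraries and the last the 6 ob/ob libraries.

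Counts were fitted over all genes in R 4.3.3 with edgeR 4.0.16 (TMM scaling, robust quasi-likelihood F test, two-sided, Benjamini-Hochberg adjustment over all genes tested, threshold 0.05), after a filter of 10 counts in 3 or more of the fitted libraries. Bead and depleted libraries were compared with the lysate as a block. The labels tie both libraries to a lysate, and in the 10 lysates that could be checked each deviated from its group mean most like its own partner (r 0.0751 to 0.304). Leptin and genotype were tested within a fraction in a fit of 6 groups, where the spread is pooled over groups, so that a lone library is assumed to vary like the rest, and the 10 h effect is the mean over genotypes. The effect over all strata came from a fit with stratum and leptin. CPM are TMM-scaled, and RPKM divide them by the union exon length of GENCODE M21 (55227 of 55487 IDs matched). DESeq2 1.42.0, library totals, no count filter, left-out lysates and a glial covariate were alternatives. The fits were tested on simulated data. Promoters come from RefSeq. The named members are the 10 largest changes each way in beads, a fixed core set, and, elsewhere, every member called or the 3 smallest p. The members and lists were chosen with earlier results of these data known. Depth bounds counting error only, since molecular identifiers are not described. Values of 1 member and of a listed gene beside it are not reported here.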

Additional observations from a re-analysis of the deposited data

Results flagged for a closer look

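In the 4 vehicle lysates of wild type at 3 h, a value was set apart where its gap to the nearest other lysate passed Dixon's 95% limit for 4 samples. This held for 11 of 138 groups of 4 values, and chance gives about 1 in 20. Lysate f1 stood apart in beads with Cadps and Rims1 high, at 385 and 122.8 CPM, and Rab3a and Vamp2 low, at 1064 and 1835 CPM. Its bead library also had the highest glial index of all bead libraries, at 5.31; its part in these values was not tested. Lysate m3, 1 of the 2 lysates rich in pituitary transcripts, stood apart in beads with Cplx3 and Syt17 high, at 3.28 and 114 CPM, and Syn1 low, at 571 CPM. In its depleted library Vamp7 was low at 53.8 CPM, and its log2 ratio of bead to depleted CPM of Vamp8 was -2.34. Rims4 was low in the depleted library of lysate m1, at 90.4 CPM. The log2 ratio of Cplx1 was -0.53 in lysate f3.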

How the results depend on the processing

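With library totals, 19 members were higher in beads and Syn1 turned to -0.00377. In depleted RNA 1 member then differed between genotypes (1.49%, beside 5.39% of all genes). Without the lysate block, which the paired fit holds, 30 members were higher and 25 lower in beads; Syt1, Sytl1 and Cadps lost their calls, and no member was called in the other fraction comparisons. Vehicle lysates alone gave 24 higher and 23 lower, and of the members named as called, Vamp9, Stx11, Unc13d, Sytl1, Syt1, Unc13a and Cadps were then not called. DESeq2 gave 27 higher and 32 lower (88.1% called, beside 76.9% of all genes). It called 1, 2 and 4 members for leptin in depleted RNA at 3 h, at 10 h and over all strata. These were 1.49%, 2.99% and 5.97%, beside 0.324%, 0.607% and 3.78% of all genes. Between genotypes in depleted RNA it called 6 (8.96%, beside 7.15%). With no count filter, leptin calls were 7, 6 and 12 in depleted RNA (10%, 8.57% and 17.1%, beside 1.71%, 1.58% and 3.79% of all genes), 1 at 10 h and 3 over all strata in beads (1.41% and 4.23%, beside 1.33% and 1.75%), and 1 for the difference between fractions (1.41%, beside 0.626%). The same setting gave 2 genotype calls in beads, 12 in depleted RNA, and 4 for enrichment at 10 h against 3 h (2.82%, 17.1% and 5.63%, beside 1.12%, 5.07% and 3.06%). In depleted RNA it tested 37504 genes in place of 19115, but 70 members in place of 67. The genes it added had too few counts for the filter, and few of them are members. The shares with no count filter are thus not like for like. Without the 2 pituitary-rich lysates, leptin over all strata called 3 members in beads (4.48%, beside 2.35% of all genes) and 0 in depleted RNA. For the difference between fractions it called 1 (1.49%, beside 0.518%). With the glial index as a covariate, depleted RNA gave 0 leptin calls over all strata and 8 genotype calls (11.9%, beside 8.1% of all genes). Leaving out a lysate at a time gave 0 to 3 of the former and 1 to 5 of the latter, and 26 to 30 members higher and 27 to 32 lower in beads. For the fits without the block, on vehicle lysates alone and with a lysate left out, shares of all genes are not given. Their member counts thus cannot be set against a background. The causes were not tested. Groups of 1 library and members under 1 CPM limit what these data can show.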
